A study of Mus musculus with 57 samples.

Results

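FOXA2 single-positive cells were sorted at D2 of retinoic acid (RA) differentiation and their progeny were profiled at D4, and the comparison of these progeny with their D2 parents rests on 6 of the 57 bulk RNA-seq libraries of the series. The libraries were chosen by their labels alone: 3 of Sox1-FOXA2+ cells sorted at D2, and 3 of the progeny of such cells. All cells belong to the Sox1-EGFP/FoxA2mCherry line, a mouse embryonic stem cell (ESC) line that is 1 clone, in which EGFP takes the place of a Sox1 allele and mCherry marks FoxA2. Until D2, every group was cultured in N2B27, a medium free of serum, with 1.0 uM RA, and the Sox1-FOXA2+ gate, drawn with wild-type cells, held cells positive for mCherry and negative for EGFP. The progeny were then replated on gelatin and kept for 2.0 days in RA on a basal medium containing serum and no LIF. They were harvested without a further sort, so Sox1-FOXA2+ is the gate of their parents. The D2 libraries hold cells of that gate, not the very cells that were replated. Replating, serum, time and the absence of a sort at harvest differ together between the groups and cannot be told apart in this comparison. Sox1-FOXA2+ cells that were sorted at D4 from N2B27 with RA (sorted D4, 3 libraries) have the same age as the progeny. Sox1+FOXA2- and Sox1+FOXA2+ cells passed through the same D2 sort, replating and serum medium, and 3 D2 and 3 progeny libraries of each are used below.

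FOXA2 is a forkhead transcription factor of the endoderm lineages. In the early mouse embryo, extraembryonic endoderm gives rise to visceral endoderm, an epithelium that takes up nutrients through the receptors megalin and cubilin, and to parietal endoderm, whose migratory cells lay down a thick basement membrane of laminin, type IV collagen, nidogen and perlecan. RA treatment of embryonal carcinoma cells and ESCs is a classical way to obtain such cells in culture. Outside the endoderm, contractile genes and immediate early genes are targets of serum response factor (SRF), genes such as Ccn1 and Ccn2 are targets of YAP with its DNA-binding partners of the TEAD family, and the enzymes of cholesterol synthesis are targets of the sterol-regulated factor SREBP2.

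Total counts were 32713030 to 61358355 per D2 library and 10170632 to 73126473 per progeny library, with the lowest in progeny replicate 1. Genes with at least 1 count numbered 17103 to 18470 in the D2 libraries and 18384 to 26281 in the progeny. The 50 most abundant genes held 20.1% to 30.0% of counts at D2 and 25.7% to 39.1% in the progeny, and mitochondrial transcripts 9.31% to 17.0% and 10.7% to 13.0%. Sox1 was listed at 0 in every library of the series, including those sorted for Sox1-EGFP, and therefore checks no label. Such zeros may come from the counting, whose treatment of overlapping genes is not given, and are not read as absence of the transcript. Foxa2 had normalized counts of 3241, 3057 and 1646 at D2 and 2464, 2031 and 1093 in the progeny, and 2164, 2716 and 2267 in the sorted D4 cells. The ranges overlapped, and Foxa2 did not pass the test between the progeny and their D2 parents (log2 fold change -0.53, adjusted p = 0.871). Normalized counts are counts divided by a size factor per library, and they are given here in the order of replicates 1 to 3. In bulk RNA, fewer cells of a type and less RNA per cell cannot be told apart.

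Of 22909 genes tested with edgeR's quasi-likelihood test, 498 (2.17%) passed an adjusted p of 0.05, of which 327 (1.43%) were higher and 171 (0.746%) lower in the progeny. The median log2 fold change (progeny over D2) of all tested genes was 0.06. The 3 progeny libraries were all above the 3 D2 libraries for 11.6% of tested genes and all below them for 7.52%, and these shares are the background for the counts of gene groups below. Among the groups, 10 of 12 basement membrane genes and 15 of 17 tested smooth muscle and SRF target genes rose, and none of either fell. Of the 22 tested genes of cholesterol synthesis and uptake, 5 fell and none rose. None of the 7 tested mesendoderm, node and notochord genes passed edgeR's test, with 0 at an unadjusted p under 0.05 and 0 by DESeq2. The same held for 14 S phase genes (5 and 2), 15 G2 and M phase genes (5 and 4) and 8 DNA methylation enzymes (2 and 2). Over all genes, 3309 of 22909 had an unadjusted p under 0.05 and DESeq2 called 1769. Of the G2 and M phase genes, 14 had a log2 fold change below 0, and 6 had all progeny below all D2 libraries. Of the S phase genes, 9 were below 0, 5 had all progeny below all D2 libraries and 2 all above. Summed G2 and M phase levels were 155380 to 177400 at D2 and 97677 to 145400 in the progeny. Those of S phase were 76650 to 78604 and 50830 to 69698.

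**Figure D1:**
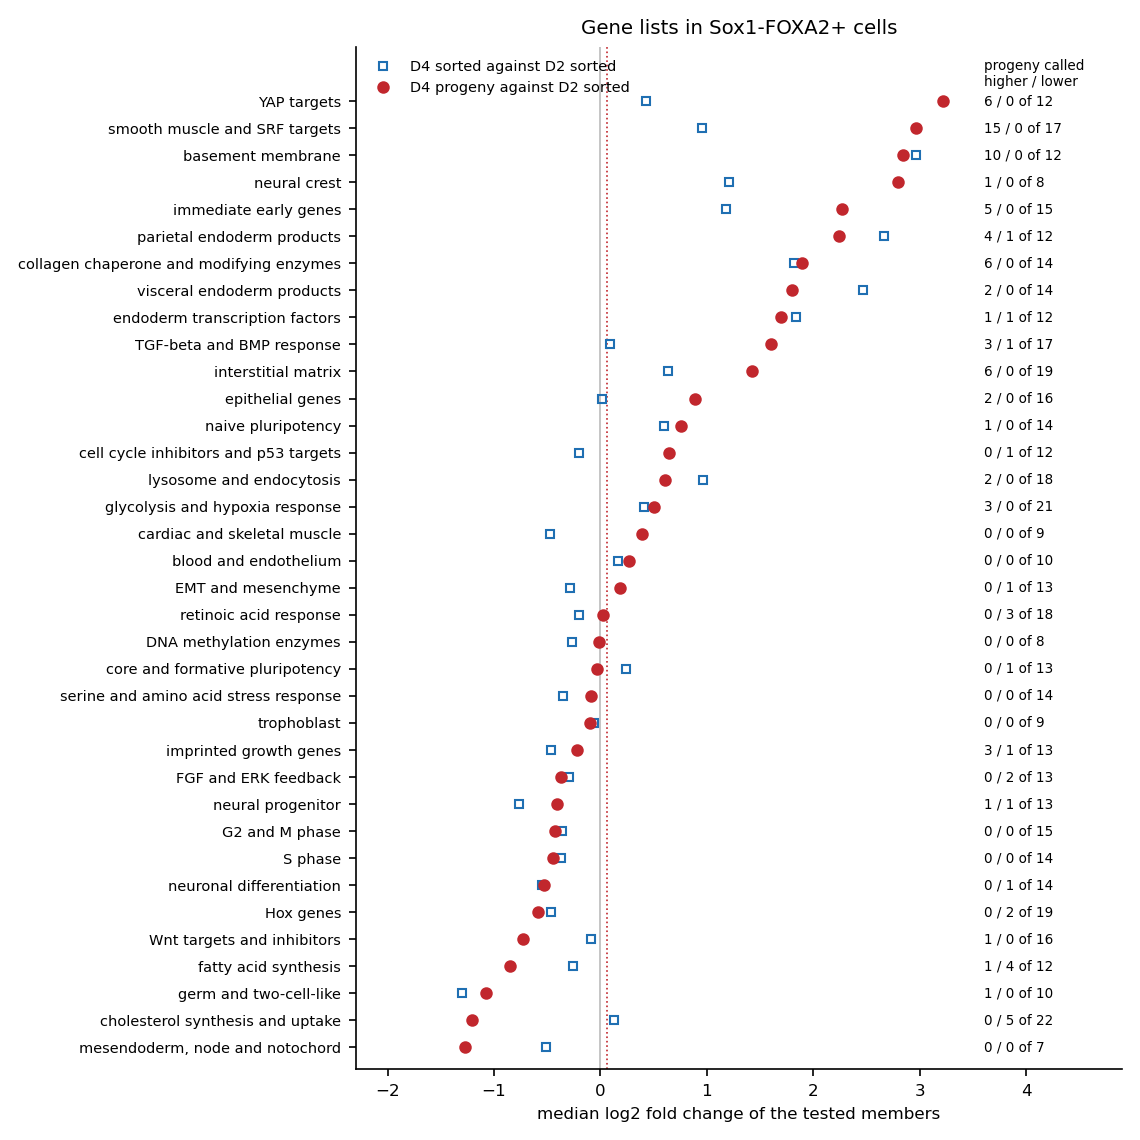
Median log2 fold change of the tested members of each gene list (horizontal axis), with 1 row per list, filled circles for D4 progeny against D2 sorted cells, open squares for D4 sorted against D2 sorted cells, and the counts called higher and lower in the progeny at the right. The dotted line is the median of all genes tested in the progeny comparison, 0.06. The circles reach 3.22 for YAP targets, 2.96 for smooth muscle and SRF targets and 2.85 for basement membrane, and the square lies beside the circle for basement membrane but far to its left for YAP targets and smooth muscle.

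Of the 12 transcription factors listed for endoderm, 1 rose and 1 fell, and the median log2 fold change of the group was 1.70. Gata4 (ENSMUSG00000021944.15, chromosome 14, 63198922 to 63271692; GRCm38, as are all coordinates here), a zinc finger factor of primitive endoderm, had normalized counts of 75.9, 1139 and 1112 at D2 and 12007, 12077 and 9251 in the progeny. D2 replicate 1 was far below the other D2 libraries, and all progeny were above all D2 libraries (log2 fold change 3.84 (standard error 0.81, adjusted p = 0.00951)). Gata6, which acts with Gata4 in primitive endoderm, had normalized counts of 365, 1288 and 1703 at D2 and 6173, 9935 and 6425 in the progeny. Sox7, an endoderm factor of the SOX family, had normalized counts of 381, 1310 and 603 at D2 and 6333, 8738 and 2967 in the progeny, and Sox17, its relative, had normalized counts of 175, 787 and 537 at D2 and 1645, 1834 and 933 in the progeny. The progeny were above the D2 cells in every library for these 3 genes too, but none passed the test (adjusted p = 0.168, 0.132 and 0.504), and D2 replicate 1 was the lowest library for each. Foxa1, a forkhead factor closely related to Foxa2, was lower in all progeny libraries (26.7, 310.3 and 26.8) than at D2 (788, 767 and 1227) without passing the test (adjusted p = 0.233). The factor that fell, Prdm1, is described with the lower genes. With all 57 libraries in the fit the call was lost for Gata4 (0.0891), where the value in parentheses is the adjusted p, here and below. The list held 2 genes called higher without D2 replicate 2, and 2 called lower without progeny replicate 2. Its median was 2.66 without D2 replicate 2.

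The genes of the basement membrane rose in 10 of 12 cases, all 10 without overlap between the groups, and the median log2 fold change was 2.85, against 0.06 over all genes. The 10 were called with any single library left out. Lama1 (ENSMUSG00000032796.8, chromosome 17, 67697259 to 67822647), the alpha chain of laminin-111, had normalized counts of 2891, 15672 and 24999 at D2 and 132262, 218076 and 166775 in the progeny. All progeny were above all D2 libraries, and D2 replicate 1 was the lowest of all (log2 fold change 3.60 (standard error 0.56, adjusted p = 0.00061)). Lamc1, the gamma chain shared by most laminins, went from 11191, 13809 and 21336 at D2 to 104312, 176092 and 125538 in the progeny (log2 fold change 3.16 (standard error 0.36, adjusted p = 1.43e-05)), and Lamb1, the beta chain of laminin-111, from 12026, 14529 and 18961 to 73368, 114046 and 80601 (log2 fold change 2.58 (standard error 0.42, adjusted p = 0.000912)). Lamb2, the other laminin beta chain tested, had a log2 fold change of 3.12 (adjusted p = 0.00503).

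The type IV collagen chains, which form the network of the basement membrane, rose as a pair from a shared locus. Col4a1 (ENSMUSG00000031502.11, chromosome 8, 11198423 to 11312826) had normalized counts of 8891, 13311 and 12985 at D2 and 200431, 165062 and 142541 in the progeny (log2 fold change 3.85 (standard error 0.56, adjusted p = 0.000264)). Its neighbour Col4a2 (ENSMUSG00000031503.13, chromosome 8, 11312805 to 11449287), which lies head to head with it on the other strand, had normalized counts of 4604, 3842 and 7202 at D2 and 64821, 61413 and 52081 in the progeny (log2 fold change 3.52 (standard error 0.47, adjusted p = 0.000111)). For both genes the groups were far apart, and no library stood out from its own group. Sparc, a collagen-binding glycoprotein that parietal endoderm makes in large amounts, went from 4972, 5784 and 17269 to 70300, 114609 and 86263 (log2 fold change 3.31 (standard error 0.39, adjusted p = 2.26e-05)). Hspg2, which encodes perlecan, rose by 2.26 on the log2 scale, and the nidogens Nid1 and Nid2, which link laminin to collagen, by 2.14 and 1.99 (adjusted p = 0.00376, 0.00594 and 0.0022). The 2 members that did not pass were Lama5, a laminin chain of later epithelia, with normalized counts of 7120, 3794 and 4181 at D2 and 6053, 3639 and 6090 in the progeny, and Agrn, the proteoglycan agrin, with normalized counts of 7835, 6321 and 5462 at D2 and 10718, 6604 and 7049 in the progeny. For both genes the groups overlapped. With all 57 libraries in the fit the call was lost for Nid1 (0.447), and the other 9 remained.

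**Figure D2:**
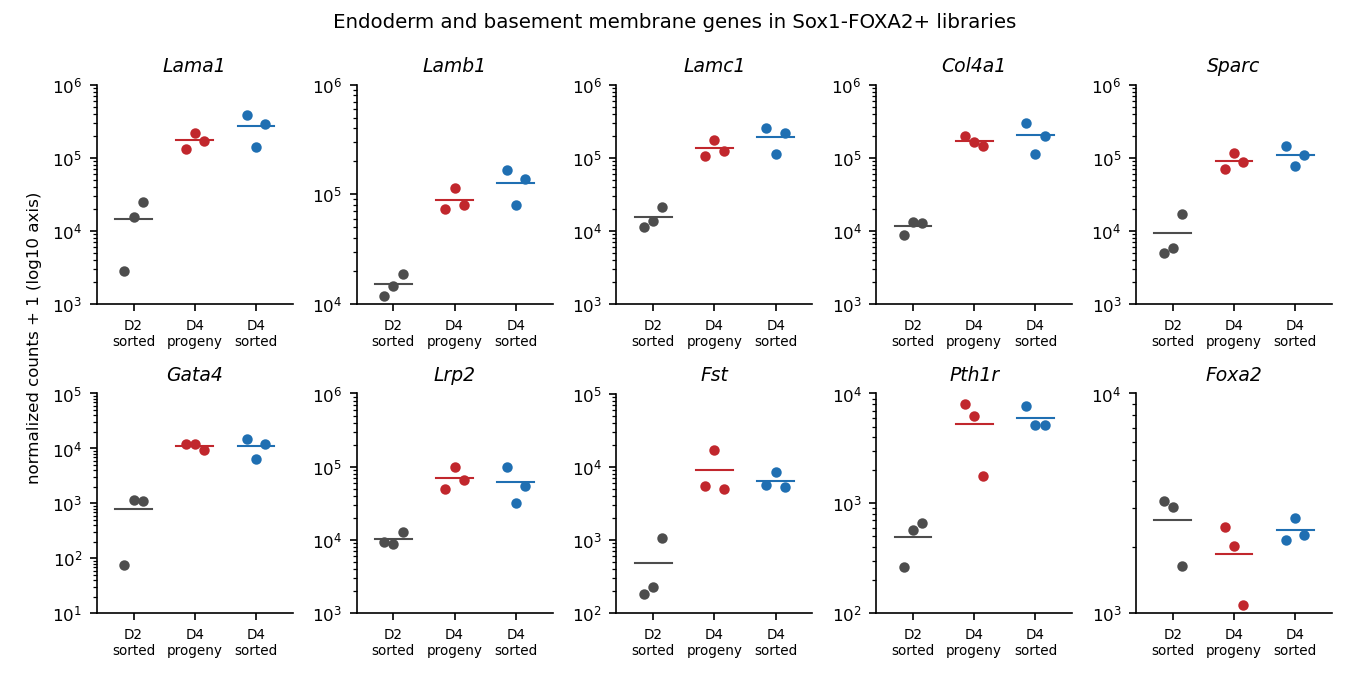
Normalized counts plus 1 per library (log10 axis) of endoderm and basement membrane genes in D2 sorted, D4 progeny and D4 sorted Sox1-FOXA2+ cells, with 3 points per group and the mean as a line. Every progeny point is above every D2 point for the 9 genes other than Foxa2, and the D4 sorted points reach the level of the progeny.

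Collagen needs chaperones and modifying enzymes before it leaves the cell, and 6 of the 14 such genes tested rose, with a median log2 fold change of 1.89 and none lower. Plod2, a lysyl hydroxylase, had normalized counts of 2668, 2719 and 1674 at D2 and 5310, 17685 and 14202 in the progeny (log2 fold change 2.42 (standard error 0.39, adjusted p = 0.000826)). Serpinh1, the collagen chaperone HSP47, was narrowly spread within each group, with normalized counts of 8243, 10299 and 9810 at D2 and 26282, 31139 and 24354 in the progeny (log2 fold change 1.53 (standard error 0.27, adjusted p = 0.00197)). The prolyl hydroxylase subunits P4ha1, P4ha2 and P4hb rose by 2.14, 2.21 and 1.03 on the log2 scale (adjusted p = 0.00376, 0.00448 and 0.0236), and Loxl2, which crosslinks type IV collagen, by 2.64 (adjusted p = 0.0176). Leaving out 1 library ended the call for P4hb without progeny replicate 2 or 3 or D2 replicate 1 or 2 or 3 (0.0503 to 0.157) and Loxl2 without progeny replicate 2 or 3 or D2 replicate 1 or 2 (0.0561 to 0.0917). The fit of all 57 libraries lost Serpinh1 (0.361), P4hb (0.123) and Loxl2 (0.176), and that of the 6 compared libraries alone lost P4hb (0.0651).

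Among 12 products of parietal endoderm, 4 rose and 1 fell, with a median log2 fold change of 2.24. Fst, which encodes the activin antagonist follistatin, had normalized counts of 181, 229.9 and 1053 at D2 and 5452, 16762 and 4943 in the progeny (log2 fold change 4.27 (standard error 0.85, adjusted p = 0.00574)). Pth1r, the receptor for parathyroid hormone-related peptide and an early marker of parietal endoderm, had normalized counts of 260.1, 566 and 663 at D2 and 8005, 6187 and 1762 in the progeny (log2 fold change 3.41 (standard error 0.59, adjusted p = 0.00157)). The lowest progeny library of each was above the highest D2 library. Srgn, the proteoglycan serglycin, and Vim, the intermediate filament vimentin, rose by 2.96 and 1.68 on the log2 scale (adjusted p = 0.0197 and 0.0139). Krt19, a keratin of parietal endoderm, had normalized counts of 444, 824 and 333 at D2 and 12390, 16680 and 6325 in the progeny, and Pdgfra, a receptor of primitive endoderm, had normalized counts of 32.5, 976 and 960.0 at D2 and 5626, 6622 and 4201 in the progeny. For Krt19 and Pdgfra the groups did not overlap, yet neither passed the test (adjusted p = 0.0573 and 0.175). Grb10, an imprinted adaptor protein that restrains growth signalling, fell, from 3924, 3247 and 2957 to 374, 767 and 1479 (log2 fold change -1.91 (standard error 0.40, adjusted p = 0.00788)). Single libraries decided the call for Srgn without progeny replicate 2 or D2 replicate 1 or 2 (0.0714 to 0.101) and Vim without D2 replicate 1 or 3 (0.0793 to 0.0992). Without D2 replicate 1 the list held 2 genes called higher, and without D2 replicate 3 its median was 3.63. In the fit of all 57 libraries the call was lost for Vim (0.0927).

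Visceral endoderm products moved unevenly: 2 of the 14 tested rose, both of them endocytic receptors, and none fell. Lrp2 (ENSMUSG00000027070.14, chromosome 2, 69424340 to 69586065), which encodes megalin, had normalized counts of 9364, 8772 and 12719 at D2 and 49399, 98246 and 65357 in the progeny (log2 fold change 2.81 (standard error 0.40, adjusted p = 0.00023)). The groups were far apart, and the D2 libraries were close to one another. Cubn, which encodes the megalin partner cubilin, had normalized counts of 1151, 5647 and 1795 at D2 and 23481, 38629 and 23642 in the progeny (log2 fold change 3.30 (standard error 0.80, adjusted p = 0.0264)), and the call was lost for Cubn without progeny replicate 2 or D2 replicate 1 or 3 (0.0831 to 0.141), and with all 57 libraries for Cubn (0.0891). Dab2, an adaptor of megalin, had normalized counts of 1872, 9989 and 3895 at D2 and 15876, 26966 and 14022 in the progeny (adjusted p = 0.0632). Afp, Ttr and Apob, 3 of the secreted products, showed no such rise, and they do not stand for the other members of the list. Afp, alpha-fetoprotein, was at 0 in 2 D2 and 2 progeny libraries, with 462 normalized counts in D2 replicate 3 and 7.52 in progeny replicate 2. Ttr, transthyretin, had normalized counts of 350.5, 0 and 2.19 at D2 and 8.89, 80.9 and 7.67 in the progeny, and Apob, apolipoprotein B, had normalized counts of 632, 471 and 1265 at D2 and 0, 0 and 82.5 in the progeny. None of these 3 passed the test (adjusted p = 0.474, 0.804 and 0.0907). Apob was called lower without progeny replicate 3, Dab2 was called higher without D2 replicate 2, and 1 gene of the list rose without progeny replicate 2 or D2 replicate 1 or 3. With DESeq2, and without the filter on low counts, 18 genes of the list were tested, of which 4 rose and Apob fell. Of 18 lysosomal and endocytic genes, 2 rose, both cysteine proteases of the lysosome: Ctsl, cathepsin L, by 2.36 and Lgmn, legumain, by 2.99 on the log2 scale (adjusted p = 0.0109 and 0.00389). The Ctsl exons overlap those of other genes over 26.8% of their length.

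Interstitial matrix genes, which belong to connective tissue rather than to basement membrane, rose in 6 of 19 tested members and fell in none. Col3a1, a fibrillar collagen, had normalized counts of 19.9, 0.983 and 2.19 at D2 and 1521, 671 and 2262 in the progeny (log2 fold change 7.66 (standard error 1.38, adjusted p = 0.00233)). Col1a1, the main chain of type I collagen, had normalized counts of 228, 29.5 and 184 at D2 and 2037, 2351 and 11557 in the progeny (log2 fold change 5.24 (standard error 1.10, adjusted p = 0.0087)), and progeny replicate 3 was far above the other progeny. Col12a1, a collagen that decorates fibrils, and Thbs1, the adhesive glycoprotein thrombospondin 1, were also highest in that replicate, with 2499, 3854 and 12756 in the progeny against 50.6, 132 and 78.9 at D2, and 2953, 3288 and 15999 against 336, 70.7 and 24.1. Their log2 fold changes were 6.20 and 5.72 (adjusted p = 0.0017 and 0.00891). Tnc, the matrix glycoprotein tenascin C, had 2 counts in all over the D2 libraries and 271, 592 and 636 normalized counts in the progeny, a ratio of 1013 with a 95% counting interval of 280.6 to 8368. Col5a2 rose by 3.79 (adjusted p = 0.00352). Fn1, fibronectin, had normalized counts of 11152, 11200 and 6349 at D2 and 7480, 8750 and 18033 in the progeny and did not pass the test (adjusted p = 0.766). The fit of all 57 libraries ended the calls for Col1a1 (0.116) and Col5a2 (0.1).

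Acta2, Ankrd1, Tpm1 and Ccn1 are examples of the contractile and YAP-responsive genes that rose, and Hmgcs1 is an example of the sterol genes that fell. Their promoters are shown as the 250 bases before the annotated start (RefSeq, GRCm38.p6), written 5′ to 3′ on the strand of the gene. RefSeq starts can differ from the GENCODE gene coordinates printed elsewhere here. By the latter, the Ankrd1 window lies inside the gene, and the Acta2 and Tpm1 windows lie mostly inside theirs. Capitals mark each match to the CArG box (CC, 6 bases of which at least 5 are A or T, GG), to the TEAD motif GGAATG on either strand, or to the sterol element TCACNCCAC on either strand.
Acta2, chr19:34255374-34255623, minus strand: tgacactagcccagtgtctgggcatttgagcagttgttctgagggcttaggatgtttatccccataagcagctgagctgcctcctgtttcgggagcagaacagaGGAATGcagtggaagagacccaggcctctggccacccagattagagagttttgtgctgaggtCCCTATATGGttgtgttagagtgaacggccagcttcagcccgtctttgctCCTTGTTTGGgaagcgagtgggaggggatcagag
Ankrd1, chr19:36119845-36120094, minus strand: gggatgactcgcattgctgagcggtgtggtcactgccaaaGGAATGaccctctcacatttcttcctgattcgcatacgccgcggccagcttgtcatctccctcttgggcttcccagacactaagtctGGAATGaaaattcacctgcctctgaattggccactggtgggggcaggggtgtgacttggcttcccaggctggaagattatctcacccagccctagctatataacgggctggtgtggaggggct
Tpm1, chr9:67049214-67049463, minus strand: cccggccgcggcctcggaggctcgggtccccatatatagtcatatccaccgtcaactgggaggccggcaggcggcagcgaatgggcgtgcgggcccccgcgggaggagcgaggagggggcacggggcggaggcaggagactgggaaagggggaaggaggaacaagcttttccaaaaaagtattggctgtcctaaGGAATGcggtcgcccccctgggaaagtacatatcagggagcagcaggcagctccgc
Ccn1, chr3:145649986-145650235, minus strand: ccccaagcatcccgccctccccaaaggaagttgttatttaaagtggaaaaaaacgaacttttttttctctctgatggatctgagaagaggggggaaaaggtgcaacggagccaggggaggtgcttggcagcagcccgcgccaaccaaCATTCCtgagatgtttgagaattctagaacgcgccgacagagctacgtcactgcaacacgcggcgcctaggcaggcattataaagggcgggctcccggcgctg
Hmgcs1, chr13:119690101-119690350, plus strand: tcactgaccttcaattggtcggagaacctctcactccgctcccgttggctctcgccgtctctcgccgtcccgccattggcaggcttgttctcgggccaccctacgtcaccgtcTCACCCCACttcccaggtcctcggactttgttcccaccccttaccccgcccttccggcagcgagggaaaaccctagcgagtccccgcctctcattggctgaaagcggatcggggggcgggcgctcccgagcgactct
The Acta2 window holds 2 CArG matches and 1 TEAD match, the Ankrd1 window 2 TEAD matches, the Tpm1 and Ccn1 windows 1 TEAD match each, and the Hmgcs1 window 1 sterol element. These 5 genes were picked after the matches were known. A CArG match was present before 8.65% of the 27025 genes with a RefSeq promoter, before 6 of 16 smooth muscle and SRF targets with one and before 3 of 11 immediate early genes. Of those smooth muscle and SRF targets, Acta2, Cnn2 and Vcl rose, Myl9 was not called, and Srf and Acta1 were not tested. The immediate early genes with a match were Ier3, Atf3 and Nr4a1, which were not called. Fos, Fosl2, Jun, Junb and Klf6, which rose, had no CArG match. The TEAD motif was present before 12.6% of all genes, 6 of 9 YAP targets and 9 of 16 smooth muscle and SRF targets, and the sterol element before 1.04% of all genes, 1 of 15 cholesterol genes and 0 of 9 fatty acid genes. Hmgcs1 was that cholesterol gene, and Idi1 and Msmo1, which also fell, had no sterol element. No CArG match overlapped a TEAD match. A match describes the letters of the window and is no evidence that a factor was bound.

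Smooth muscle and SRF target genes formed the group with the most calls. Of 17 tested members 15 rose, none fell, all 17 had progeny libraries above every D2 library, and the median log2 fold change was 2.96. With 1 library left out, 10 to 14 rose. Acta2 (ENSMUSG00000035783.9, chromosome 19, 34241090 to 34255590), smooth muscle alpha-actin, had normalized counts of 0, 23.6 and 81.1 at D2 and 11331, 20678 and 17532 in the progeny (log2 fold change 8.97 (standard error 0.96, adjusted p = 6.06e-06)). The D2 cells were at or near 0, and all progeny were far above them. Tagln, the actin-binding protein transgelin and a classical smooth muscle marker, had 1 count in all over the D2 libraries and 325, 155 and 307 normalized counts in the progeny, a ratio of 1064 (95% counting interval 191 to 42030). Of the Tagln exon length, 67.9% overlaps a gene on the other strand. The calponins Cnn1 and Cnn2, which bind actin, had normalized counts of 5.42, 51.1 and 94.2 at D2 and 2028, 2569 and 2800 in the progeny, and normalized counts of 1340, 502 and 555 at D2 and 5835, 7715 and 6176 in the progeny. Each was higher in every progeny library, with log2 fold changes of 5.65 and 3.06 (adjusted p = 0.0225 and 0.000253).

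The tropomyosins wrap the actin filament. Tpm1 (ENSMUSG00000032366.15, chromosome 9, 67022590 to 67049406) had normalized counts of 6516, 10578 and 10034 at D2 and 79132, 60082 and 65048 in the progeny (log2 fold change 2.91 (standard error 0.27, adjusted p = 1.16e-06)), and Tpm2 and Tpm4 rose by 2.66 and 2.23 on the log2 scale (adjusted p = 7.62e-05 and 6.25e-05). Cald1, caldesmon, had normalized counts of 6380, 6214 and 4465 at D2 and 42145, 41361 and 49173 in the progeny (log2 fold change 2.96 (standard error 0.23, adjusted p = 7.24e-08)). For both genes the groups were far apart and the replicates of each group close together. Myh11, the smooth muscle myosin heavy chain, had normalized counts of 191, 378 and 158 at D2 and 2757, 2124 and 2263 in the progeny (log2 fold change 3.27 (standard error 0.69, adjusted p = 0.00879)). Csrp1, Smtn, Flna, Tagln2, Lmod1 and Vcl, which encode proteins of the actin cytoskeleton and its attachments, rose by 2.66, 1.82, 1.48, 1.59, 3.25 and 1.26 (adjusted p = 0.000559, 0.00127, 0.00264, 0.0115, 0.0364 and 0.0394). Exon overlap with other genes was 25.5% of length for Vcl and 16.3% for Smtn. Myl9, a myosin light chain, had normalized counts of 304, 63.9 and 65.8 at D2 and 1459, 1318 and 1544 in the progeny, and Actg2, smooth muscle gamma-actin, had normalized counts of 40.6, 14.2 and 0 at D2 and 205, 425 and 559 in the progeny, and neither passed the test (adjusted p = 0.219 and 0.138). Leaving out 1 library ended calls for Cnn1 without D2 replicate 1 or 2 (0.0704 to 0.0941), Myh11 without D2 replicate 1 or 3 (0.0619 to 0.0633), Lmod1 without any 1 of the 6 libraries compared (0.0544 to 0.131), Vcl without progeny replicate 2 or 3 or D2 replicate 1 or 2 (0.0536 to 0.285) and Tagln2 without progeny replicate 2 or D2 replicate 1 (0.052 to 0.0967). Fitting all 57 libraries ended them for Tagln (0.0594), Cnn1 (0.11), Tagln2 (0.127), Lmod1 (0.0592) and Vcl (0.203), and with the 6 libraries alone for Vcl (0.0795). Without progeny replicate 3 the log2 fold change of Vcl was 0.83. Srf itself and Acta1 were listed at 0 in all of these libraries, which, as for Sox1, is not read as absence.

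**Figure D3:**
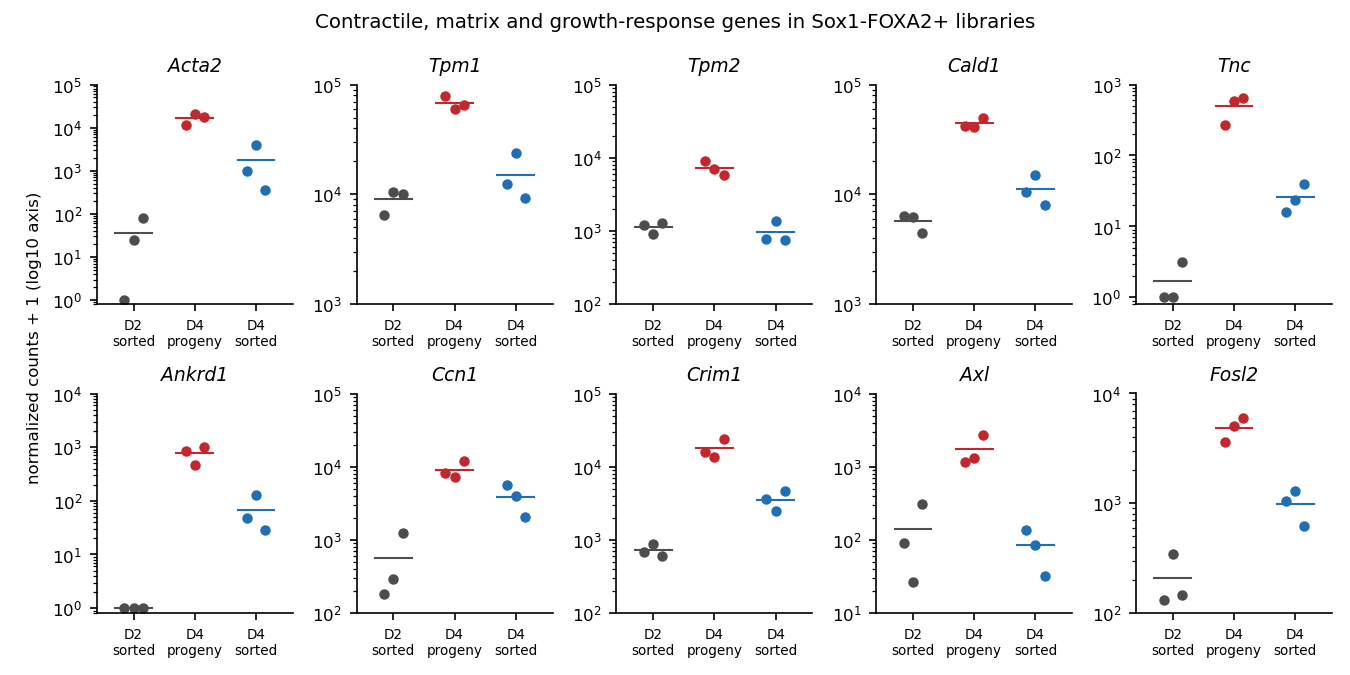
Normalized counts plus 1 per library (log10 axis) of contractile, matrix and growth-response genes in D2 sorted, D4 progeny and D4 sorted Sox1-FOXA2+ cells, with 3 points per group and the mean as a line. Every progeny point is above every D2 point, and every D4 sorted point is below the lowest progeny point of its gene.

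Of 12 YAP targets 6 rose and none fell, with a median log2 fold change of 3.22, and for 11 of the 12 the progeny lay above every D2 library. Ankrd1 (ENSMUSG00000024803.9, chromosome 19, 36111961 to 36120099), a cardiac and muscle ankyrin repeat protein, was at 0 in all 3 D2 libraries and at 863, 457 and 1026 normalized counts in the progeny, at least 1057-fold higher against a floor of 3 counts over the group. Crim1, a transmembrane protein that binds BMPs, had normalized counts of 687, 872 and 601 at D2 and 15881, 13654 and 23868 in the progeny (log2 fold change 4.63 (standard error 0.55, adjusted p = 2.77e-05)). The matricellular proteins Ccn1 and Ccn2 had normalized counts of 182, 292 and 1256 at D2 and 8103, 7345 and 11855 in the progeny, and normalized counts of 439, 379 and 1224 at D2 and 2748, 6088 and 6092 in the progeny. D2 replicate 3 was the highest D2 library for both, and still below all progeny (log2 fold changes 4.02 and 2.92, adjusted p = 0.008 and 0.0132). Amotl2, a junctional regulator of YAP, and the receptor tyrosine kinase Axl rose by 1.83 and 3.70 (adjusted p = 0.000312 and 0.00539). The call was lost for Ccn2 without progeny replicate 2 or D2 replicate 1 or 2 (0.0505 to 0.0771), and with all 57 libraries for Ccn1 (0.0556), Ccn2 (0.361) and Axl (0.132). Ccn2 exons overlap another gene over 23.2% of their length.

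Immediate early genes rose in 5 of 15 tested members. Fosl2, an AP-1 subunit, had normalized counts of 130.1, 345 and 147 at D2 and 3620, 5058 and 5954 in the progeny (log2 fold change 4.55 (standard error 0.61, adjusted p = 0.000111)). Jun, its partner, was even among replicates, with normalized counts of 784, 991 and 868 at D2 and 3816, 4216 and 4639 in the progeny (log2 fold change 2.27 (standard error 0.33, adjusted p = 0.000264)). Klf6 rose by 2.61 and Junb by 3.78 on the log2 scale (adjusted p = 0.000264 and 0.0434). Fos was at 0 in all D2 libraries and had 382, 284 and 184 in the progeny, at least 383.2-fold higher. Egr1, a zinc finger factor of the same class of early genes, did not pass the test (adjusted p = 0.106). It had normalized counts of 509, 1319 and 3529 at D2 and 97.8, 371 and 353 in the progeny, so every progeny library was below every D2 library. Of 16 genes of the list tested there, DESeq2 called 9 higher and 1 lower, and edgeR without the filter 8 higher and 1 lower. The call was lost for Junb without progeny replicate 1 or 2 or 3 or D2 replicate 1 or 2 (0.0549 to 0.198), and with the 6 libraries alone for Junb (0.0569). Fitting all 57 libraries ended it for Junb (0.172). The simple epithelial keratins Krt8 (ENSMUSG00000049382.10, chromosome 15, 101996698 to 102004482) and Krt18, which pair in 1 filament, were the 2 of 16 epithelial genes that rose. Krt8 had normalized counts of 1595, 1193 and 2370 at D2 and 40220, 31970 and 20001 in the progeny (log2 fold change 4.17 (standard error 0.40, adjusted p = 1.74e-06)), and Krt18 had normalized counts of 2362, 3115 and 2479 at D2 and 18233, 24579 and 17779 in the progeny (log2 fold change 2.93 (standard error 0.48, adjusted p = 0.00091)). Cdh1, E-cadherin, had normalized counts of 5457, 4498 and 3608 at D2 and 6306, 6843 and 10050 in the progeny and did not pass (adjusted p = 0.415).

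Among 17 genes of the TGF-beta and BMP response 3 rose and 1 fell. Smad7, the inhibitory SMAD of the pathway, had normalized counts of 551, 872 and 831 at D2 and 5506, 2280 and 4999 in the progeny (log2 fold change 2.49 (standard error 0.44, adjusted p = 0.00208)). Tgfb2, a ligand, went from 282, 462 and 465 to 1934, 1727 and 4284 (log2 fold change 2.73 (standard error 0.52, adjusted p = 0.0042)). Id3, a target of BMP signalling, was at 0 in D2 replicates 1 and 3 and at 943, 912 and 1284 in the progeny (log2 fold change 6.48 (standard error 1.57, adjusted p = 0.0261)). Lefty2, an antagonist of NODAL, was the member that fell. It had 0, 2118 and 1916 normalized counts at D2 and 0 in every progeny library, so that D2 was at least 1512-fold higher, and D2 replicate 1, also at 0, overlapped the progeny. The calls depended on single libraries for Id3 without D2 replicate 1 or 3 (0.0981 to 0.101) and Lefty2 without progeny replicate 1 or 2 or 3 or D2 replicate 2 or 3 (0.0578 to 0.118). Without D2 replicate 2 the D2 level of Id3 was 0 and the fitted value is no bound. With all 57 libraries calls were lost for Tgfb2 (0.134). Dkk2, a secreted Wnt modulator, was the 1 of 16 Wnt targets and inhibitors that rose, from 3.61, 15.7 and 4.38 to 987, 564 and 1316 (log2 fold change 6.80 (standard error 1.28, adjusted p = 0.00363)), a call lost with all 57 libraries for Dkk2 (0.0723).

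Markers of cell types other than endoderm were checked as lists. Sox9 was the 1 of 8 tested neural crest genes that rose, with normalized counts of 211, 399 and 173 at D2 and 2224, 2385 and 1592 in the progeny (log2 fold change 2.96 (standard error 0.52, adjusted p = 0.0017)), and with all 57 libraries the call was lost for Sox9 (0.108). Without D2 replicate 2, 3 of these genes rose. The summed level of the neural crest list was 239 to 2145 normalized counts at D2 and 6382 to 7273 in the progeny, with Sox10 and Dlx5 at 0 at D2. By edgeR no gene was called of 10 tested for blood and endothelium, whose sum was 878 to 3581 at D2 and 2727 to 5746 in the progeny, of 9 for trophoblast, at 963 to 1804 and 3154 to 6146, or of 9 for cardiac and skeletal muscle, at 1015 to 1169 and 1348 to 1605. In each of these 3 lists 1 gene had an unadjusted p under 0.05, and DESeq2 called 0, 0 and 1. Without D2 replicate 3, 1 blood and endothelium gene rose. Lyve1 and Tnni1 were at 0 in the D2 libraries, and Etv2 and Myog in the progeny. In the EMT and mesenchyme list 1 of 13 fell, Meox1, and none rose. Without progeny replicate 3, 2 of them fell. The part of such cells in the results above was not tested. Nes, the intermediate filament nestin of neural progenitors and of many other dividing cells, rose from 1279, 1332 and 2100 to 14293, 5520 and 8267 (log2 fold change 2.57 (standard error 0.49, adjusted p = 0.00401)), the 1 of 13 neural progenitor genes to do so, where 2 did without D2 replicate 1.

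Genes that fell began with Prdm1 (ENSMUSG00000038151.13, chromosome 10, 44437177 to 44528501), which encodes the repressor BLIMP1. It had normalized counts of 4106, 3076 and 2773 at D2 and 57.8, 15 and 25.9 in the progeny (log2 fold change -6.82 (standard error 0.89, adjusted p = 7.68e-05)). The progeny were near 0 in comparison with every D2 library. Ptch1 (ENSMUSG00000021466.12, chromosome 13, 63508328 to 63573598), the receptor of Hedgehog ligands and a target of the pathway, had normalized counts of 11564, 26742 and 20092 at D2 and 1316, 993 and 1150 in the progeny (log2 fold change -4.09 (standard error 0.44, adjusted p = 6.06e-06)). Meox1, a homeobox factor of somite mesoderm, had normalized counts of 459, 471 and 686 at D2 and 0, 22.6 and 7.67 in the progeny, Ephx2, soluble epoxide hydrolase, had normalized counts of 649, 1537 and 2865 at D2 and 8.89, 37.6 and 64.2 in the progeny, and Akr1c19, an aldo-keto reductase, had normalized counts of 985, 412 and 419 at D2 and 8.89, 3.76 and 13.4 in the progeny. These 3 fell by 5.50, 5.39 and 6.07 on the log2 scale (adjusted p = 0.00023, 0.00061 and 0.0052). They are among the genes that fell most, for which a lack of overlap between groups was a condition of being named. In the fit of all 57 libraries, calls were lost for Meox1 (0.0723) and Akr1c19 (0.287).

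RA was present in both groups, and the 18 genes of the RA response did not move together: 3 fell, none rose, and the median log2 fold change was 0.02. Without D2 replicate 3, 1 of them rose. Cyp26a1, which degrades RA, and Rarb, an RA receptor induced by its ligand, had normalized counts of 2782, 4736 and 8951 at D2 and 4794, 8599 and 8480 in the progeny, and normalized counts of 5089, 3582 and 1870 at D2 and 2437, 846 and 4095 in the progeny, with overlapping groups (adjusted p = 0.8 and 0.718). Stra8, an RA-induced gene known from germ cells, fell from 25080, 26340 and 31011 to 5675, 2330 and 3797 (log2 fold change -2.82 (standard error 0.55, adjusted p = 0.00464)). Crabp1, which binds RA in the cytoplasm, and Hoxb1, the hindbrain homeobox gene with an RA response element, had normalized counts of 1404, 377 and 2354 at D2 and 0, 126 and 82.5 in the progeny, and normalized counts of 3030, 2081 and 2691 at D2 and 222, 33.9 and 171 in the progeny. All progeny libraries lay below all D2 libraries for Stra8, Crabp1 and Hoxb1 (adjusted p = 0.0445 for Crabp1 and 0.00412 for Hoxb1). Hoxb1 and Hoxb8, which fell by 2.90 (adjusted p = 0.00604), were the 2 of 19 tested Hox genes that passed the test, and none rose. The call was lost for Crabp1 without progeny replicate 1 or 2 or 3 or D2 replicate 1 or 3 (0.0694 to 0.133), with all 57 libraries for Crabp1 (0.0853), Hoxb1 (0.316) and Hoxb8 (0.49), and with the 6 libraries alone for Hoxb8 (0.0697).

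In the list of FGF and ERK feedback genes, 2 of 13 fell and none rose. Etv5, an ETS factor induced by FGF signalling, had normalized counts of 2427, 2891 and 3605 at D2 and 525, 263 and 275 in the progeny (log2 fold change -3.09 (standard error 0.43, adjusted p = 0.000177)), and Fgfr1, a receptor, had normalized counts of 4135, 2905 and 4311 at D2 and 992, 1137 and 1513 in the progeny (log2 fold change -1.62 (standard error 0.30, adjusted p = 0.00358)). Of the neural genes, Pax6, a factor of neural progenitors and eye, had normalized counts of 899.7, 546 and 1545 at D2 and 88.9, 132 and 74.3 in the progeny (log2 fold change -3.30 (standard error 0.68, adjusted p = 0.00724)), and Ina, the neurofilament alpha-internexin, had normalized counts of 1295, 717 and 2012 at D2 and 240.1, 41.4 and 181 in the progeny (log2 fold change -3.13 (standard error 0.62, adjusted p = 0.00504)). Gbx2, a homeobox factor of the anterior hindbrain, had normalized counts of 799, 1243 and 905 at D2 and 26.7, 93.1 and 123 in the progeny (log2 fold change -3.53 (standard error 0.62, adjusted p = 0.00177)), and an antisense gene overlaps 43.5% of its exon length. The groups did not overlap for any of these 5 genes, which for Gbx2 was a condition of being named. Lin28a, an RNA-binding protein of pluripotent and early progenitor cells, fell from 15543, 15264 and 15150 to 7476, 7117 and 3173 (log2 fold change -1.38 (standard error 0.31, adjusted p = 0.0145)), and Hmga1b, a chromatin protein, fell by 3.54 (adjusted p = 0.00588). The call was lost for Lin28a without progeny replicate 3 or D2 replicate 1 or 2 (0.0613 to 0.0736), and with all 57 libraries for Pax6 (0.0635), Ina (0.149), Gbx2 (0.169) and Lin28a (0.272).

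**Figure D4:**
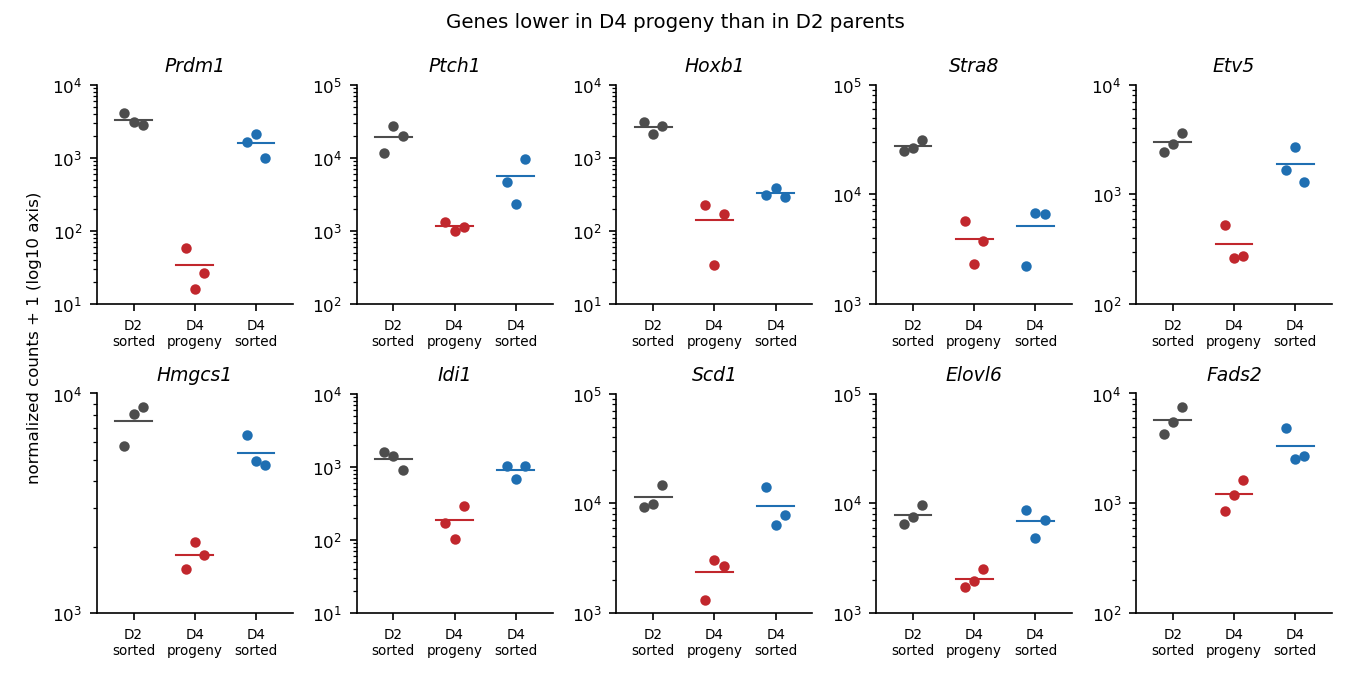
Normalized counts plus 1 per library (log10 axis) of genes that fell, in D2 sorted, D4 progeny and D4 sorted Sox1-FOXA2+ cells, with 3 points per group and the mean as a line. Every progeny point is below every D2 point, Prdm1 in the D4 sorted cells is below D2 and above the progeny, and Hoxb1 and Stra8 are low there too.

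All 22 tested genes of cholesterol synthesis and uptake had a log2 fold change below 0, with a median of -1.21. For 14 of them every progeny library lay below every D2 library, and 5 passed the test. Hmgcs1 (ENSMUSG00000093930.2, chromosome 13, 119690379 to 119708260), which makes HMG-CoA for the pathway, had normalized counts of 5767, 8058 and 8679 at D2 and 1592, 2103 and 1848 in the progeny (log2 fold change -2.01 (standard error 0.31, adjusted p = 0.00061)), with 12.1% of its exon length overlapping another gene. Msmo1, a sterol oxidase, had normalized counts of 2891, 2443 and 2547 at D2 and 222, 254 and 1049 in the progeny, and progeny replicate 3 was far above the other progeny (log2 fold change -2.33 (standard error 0.47, adjusted p = 0.006)). Idi1, the isopentenyl diphosphate isomerase, and Fdft1, squalene synthase, fell by 2.78 and 1.35 (adjusted p = 0.00679 and 0.012). Srebf2, which encodes SREBP2, had normalized counts of 6630, 7110 and 6439 at D2 and 4883, 4771 and 4191 in the progeny and did not pass the test (adjusted p = 0.345). The count depended on single libraries: 1 gene of the list fell without progeny replicate 2, 2 without progeny replicate 1, 3 without D2 replicate 3 and 7 without progeny replicate 3. With DESeq2 10 fell. Single libraries decided the call for Idi1 without progeny replicate 1 or 2 (0.0541 to 0.0694), Fdft1 without progeny replicate 1 or 2 or D2 replicate 2 or 3 (0.0529 to 0.0796) and Msmo1 without progeny replicate 2 (0.0506), and with all 57 libraries for Idi1 (0.19) and Fdft1 (0.0877).

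Fatty acid synthesis genes fell in 4 of 12 and rose in 1, with 11 of 12 below 0 and a median log2 fold change of -0.85. The genes that fell make unsaturated or elongated fatty acids. Scd1, a stearoyl-CoA desaturase, had normalized counts of 9309, 9868 and 14807 at D2 and 1334, 3085 and 2692 in the progeny (log2 fold change -2.22 (standard error 0.37, adjusted p = 0.000947)), and Scd2, the related desaturase next to it in the genome, had normalized counts of 40263, 47004 and 42168 at D2 and 5021, 17212 and 12344 in the progeny (log2 fold change -1.88 (standard error 0.41, adjusted p = 0.0127)). Elovl6, an elongase, and Fads2, a desaturase of polyunsaturated fatty acids, fell by 1.92 and 2.22 (adjusted p = 0.000912 and 0.000912). Me1, malic enzyme, which supplies NADPH, rose from 1227, 1279 and 1532 to 5430, 10202 and 7875 (log2 fold change 2.56 (standard error 0.41, adjusted p = 0.000688)). Fasn, the fatty acid synthase itself, was lower in all progeny, with normalized counts of 25856, 31658 and 44376 at D2 and 18989, 22741 and 15492 in the progeny, but did not pass (adjusted p = 0.141). The call was lost for Scd2 without progeny replicate 1 (0.0586). All 5 calls remained with all 57 libraries.

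In the remaining lists few genes passed. Glycolysis and hypoxia genes rose in 3 of 21, Hk2, a hexokinase, by 1.75, Pfkl, a phosphofructokinase, by 1.34 and Ldha, lactate dehydrogenase A, by 1.36 (adjusted p = 0.0144, 0.0396 and 0.0311). None of the 3 was called without D2 replicate 1, and 1 gene of the list rose without progeny replicate 2 and 1 without D2 replicate 2. The log2 fold change of Ldha was 0.82 without progeny replicate 2. Imprinted genes moved in both directions: H19, Peg3 and Plagl1 rose by 1.72, 1.20 and 3.36 (adjusted p = 0.0257, 0.0381 and 0.0139), and Mest fell by 2.08 (adjusted p = 0.0127). Igf2 was listed at 0, with the same limit as Sox1. Among naive pluripotency genes 1 of 14 rose, Klf5, which is also an epithelial factor, by 1.52 (adjusted p = 0.0397). DESeq2 called 3 higher and 0 lower. For 5 of the 14 the progeny lay above every D2 library and for 0 below, and the median log2 fold change was 0.76. The summed level of the list was 4323 to 8468 at D2 and 13955 to 21164 in the progeny. Nanog had normalized counts of 0.903, 0.983 and 117 at D2 and 311, 67.7 and 93.5 in the progeny (adjusted p = 0.612). Of the cell cycle inhibitors and p53 targets 1 of 12 fell, Trp53inp1, by 1.32 (adjusted p = 0.023). Mki67, a protein of cycling cells, had normalized counts of 34439, 34693 and 28611 at D2 and 30196, 33589 and 20955 in the progeny, with overlapping groups (adjusted p = 0.753). None of the 14 tested genes of serine metabolism and amino acid stress passed edgeR's test, with 1 at an unadjusted p under 0.05 and 0 by DESeq2. Zscan4a, a marker of cells that resemble the early cleavage embryo, was the 1 of 10 tested germ and early-cleavage genes that rose, with 2 counts in all over the D2 libraries and 356, 0 and 105 normalized counts in the progeny, of which replicate 2 was at 0. Zscan4a belongs to a cluster of near-identical copies, so its counts are uncertain. Leaving out 1 library ended calls for Hk2 without D2 replicate 1 (0.116), Pfkl without progeny replicate 1 or 2 or D2 replicate 1 or 2 or 3 (0.106 to 0.232), Ldha without progeny replicate 2 or D2 replicate 1 or 2 or 3 (0.0681 to 0.342) and H19 without progeny replicate 1 or 2 or D2 replicate 1 or 3 (0.0698 to 0.167), Peg3 without progeny replicate 1 or 2 or 3 or D2 replicate 1 or 3 (0.0562 to 0.209), Plagl1 without D2 replicate 1 (0.0809) and Mest without progeny replicate 1 or 2 (0.0561 to 0.0562). The same held for Klf5 without progeny replicate 1 or 2 or D2 replicate 1 or 2 (0.0561 to 0.217), Trp53inp1 without progeny replicate 1 or D2 replicate 2 or 3 (0.0676 to 0.151) and Zscan4a without progeny replicate 1 or D2 replicate 1 or 2 or 3 (0.0664 to 0.152). All 57 libraries together ended them for Pfkl (0.0725), H19 (0.123), Peg3 (0.285), Plagl1 (0.0571), Mest (0.0884), Klf5 (0.196), Trp53inp1 (0.208) and Zscan4a (0.0641), and with the 6 libraries alone for Ldha (0.0547) and Klf5 (0.0547).

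The largest rises by fitted log2 fold change were genes at or near 0 in the D2 libraries, for which only a lower bound of the fold has meaning. Vnn1, a pantetheinase, was at 0 in all D2 libraries and at 311, 839 and 1435 in the progeny, at least 1165-fold higher against the floor of 3 counts over the group. Rgs4, an inhibitor of G protein signalling, and Stmn4, a regulator of microtubules, were at least 445.6-fold and 490.6-fold higher, with 151, 653 and 185 and 694, 48.9 and 346 in the progeny. Birc7, Has1, Prickle3, Wnt10b and Tmem212 were also at 0 in all D2 libraries, and were at least 315.1-fold, 229.6-fold, 225.4-fold, 194.7-fold and 154.8-fold higher. Capn6, a calpain-like protein, had 2 counts over the D2 libraries and 276, 1213 and 617 normalized counts in the progeny, a ratio of 1423 (95% counting interval 394 to 11750). Among the largest falls beyond those above, Col26a1, a collagen, went from 331, 413 and 3775 to 22.2, 43.3 and 87.3, Cpn1, a carboxypeptidase, from 1667, 592 and 1111 to 88.9, 0 and 87.7, and Adamts17, a secreted protease, from 3700, 1064 and 2893 to 294, 13.2 and 165 (adjusted p = 0.0148, 0.0327 and 0.00897). The Col26a1 log2 fold change was -4.78, and -2.89 without D2 replicate 3. Single libraries decided the call for Stmn4 without D2 replicate 1 or 2 or 3 (0.0506 to 0.0599), Birc7 without any 1 of the 6 libraries compared (0.0737 to 0.152), Has1 without any 1 of the 6 libraries compared (0.0504 to 0.131), Prickle3 without any 1 of the 6 libraries compared (0.0889 to 0.163) and Wnt10b without any 1 of the 6 libraries compared (0.07 to 0.175). They also did so for Tmem212 without any 1 of the 6 libraries compared (0.0548 to 0.145), Capn6 without progeny replicate 2 or D2 replicate 1 or 2 or 3 (0.0705 to 0.131), Col26a1 without progeny replicate 1 or 2 or D2 replicate 3 (0.0786 to 0.292) and Cpn1 without progeny replicate 1 or 3 or D2 replicate 1 or 3 (0.0517 to 0.11). Fitting all 57 libraries ended the calls for Birc7 (0.153), Has1 (0.0647), Prickle3 (0.0939), Wnt10b (0.127) and Cpn1 (0.0577), and with the 6 libraries alone for Cpn1 (0.0756), Tmem212 (0.0863) and Wnt10b (0.0625).

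Against Sox1-FOXA2+ cells sorted at D4 in N2B27, which match the progeny in age, 36 of 24857 genes (0.145%) were called, 25 higher (0.101%) and 11 lower (0.0443%) in the progeny. An unadjusted p under 0.05 by edgeR was reached by 1526 of the 24857 genes, and DESeq2 called 579. The 2 comparisons share the progeny libraries, so their values are given side by side and not correlated. The sorted D4 libraries were themselves spread widely. Replating, serum and the gate at D4 differ together between these cells and the progeny and cannot be told apart. The D4 gate can also hold cells that became FOXA2 positive after D2. None of the 12 basement membrane genes passed edgeR's test against sorted D4, with 0 at an unadjusted p under 0.05 and 0 by DESeq2, and their median log2 fold change was -0.17, with -0.14 over all genes. Lama1 in the sorted D4 cells was at 385741, 141849 and 288886 and Col4a1 at 294435, 111248 and 200018, so the progeny lay within the sorted D4 range for Col4a1, and for Lama1 except in replicate 1, which was below it. Between sorted D4 and sorted D2 cells, 6 of the 12 were called higher. Of all genes 32 (0.133%) were called there, 0.116% of the genes being higher. An unadjusted p under 0.05 was reached there by 1750 of 24050 genes, and DESeq2 called 1345. The log2 fold changes were 4.20 for Lama1, 3.62 for Lamc1 and 3.55 for Sparc (adjusted p = 0.00729, 0.000349 and 0.00168). Col4a1, Col4a2 and Lamb1 were the other 3, with 4.07, 3.67 and 3.05 (adjusted p = 0.0233, 0.0136 and 0.00729). These calls were lost for Col4a1 without D2 replicate 1 or 2 or 3 or sorted D4 replicate 1 (0.0548 to 0.1), Col4a2 without D2 replicate 1 (0.0642) and Lamb1 without D2 replicate 1 (0.0579). Gata4 was at 14783, 6476 and 12158 and Lrp2 at 98265, 31610 and 54277 in sorted D4 cells.

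The contractile genes stood differently against the same sorted D4 cells. Of the smooth muscle and SRF targets, 4 were higher in the progeny and none lower, with a median log2 fold change of 1.67, and edgeR called none of them between sorted D4 and sorted D2 (4 at an unadjusted p under 0.05, 3 by DESeq2), where the median was 0.96. Tpm2 had 776, 1349 and 753 in sorted D4 cells, all below the progeny, a log2 fold change of 2.89 (standard error 0.44, adjusted p = 0.0035) that was called with any single library left out and with all 57. Tpm1, Myh11 and Actg2 were higher than in sorted D4 by 2.13, 2.55 and 6.49 (adjusted p = 0.0493, 0.0476 and 0.0476). Acta2 had 1000, 3873 and 352 in the sorted D4 cells, below all progeny, with a log2 fold change of 3.19 that did not pass (adjusted p = 0.221). Crim1 and Krt8 were higher by 2.33 and 1.91 and Etv5 lower, with -2.46 (adjusted p = 0.00899, 0.0493 and 0.0476). Cholesterol genes had a median of -1.51 against sorted D4 and 0.12 between sorted D4 and sorted D2, and edgeR called none of the 22 in either. Against sorted D4, 14 of them had an unadjusted p under 0.05 and DESeq2 called 9, and between sorted D4 and sorted D2 the counts were 1 and 1. Calls against sorted D4 were lost for Tpm1 without progeny replicate 1 or 2 or 3 or sorted D4 replicate 1 or 3 (0.066 to 0.367), Myh11 without any 1 of the 6 libraries compared (0.0616 to 0.21) and Actg2 without progeny replicate 2 or 3 or sorted D4 replicate 1 or 2 or 3 (0.0642 to 0.252). The same held for Crim1 without sorted D4 replicate 2 (0.0648), Krt8 without progeny replicate 1 or 2 or sorted D4 replicate 1 or 2 or 3 (0.0647 to 0.367) and Etv5 without any 1 of the 6 libraries compared (0.0858 to 0.247). Fitting all 57 libraries ended those for Myh11 (0.503), Actg2 (0.446), Crim1 (0.213), Krt8 (0.485) and Etv5 (0.239), and RLE factors those for Myh11 (0.0527) and Actg2 (0.0514).

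The largest differences from sorted D4 cells involved other genes. Tbx2, a T-box repressor, had 42.6, 19.2 and 42.9 in sorted D4 cells and 1245, 1439 and 2320 in the progeny, with 56, 65.8 and 0 at D2, and a log2 fold change against sorted D4 of 5.60 (standard error 0.70, adjusted p = 0.00077). Axl had 135, 84.5 and 31.8 and 1156, 1333 and 2740 (log2 fold change 4.37, adjusted p = 0.00324), and Col3a1 18.5, 1.13 and 31.8 and 1521, 671 and 2262 (6.48, adjusted p = 0.0377). Tmem252, which encodes a transmembrane protein, was at 0 in all sorted D4 libraries and at 169, 282 and 167 in the progeny. Prdm1 had 1633, 2109 and 1000 in sorted D4 cells, so that the progeny were lower there too, with a log2 fold change of -5.71 (standard error 0.75, adjusted p = 0.000863). Fat3, a large cadherin, and Fras1, an extracellular matrix protein of epithelial basement membranes, had 2396, 2136 and 8916 and 5992, 11416 and 6962 in sorted D4 against 409, 131 and 494 and 1085, 850.1 and 1261 in the progeny. Their log2 fold changes were -3.70 and -2.96 against sorted D4 and -3.34 and -2.29 against D2 (adjusted p = 0.00414, 0.00762, 0.00122 and 0.0394). Adamts17 and Igfbp5, which encodes a binding protein of insulin-like growth factors, were also lower than in sorted D4, with -3.86 and -2.94 (adjusted p = 0.0476 and 0.0192). Calls against sorted D4 were lost for Col3a1 without sorted D4 replicate 1 or 2 or 3 (0.063 to 0.0942), Tmem252 without sorted D4 replicate 2 (0.0581), Fras1 without sorted D4 replicate 2 (0.0581), Adamts17 without progeny replicate 2 or 3 or sorted D4 replicate 2 or 3 (0.0662 to 0.192) and Igfbp5 without progeny replicate 1 or 2 or 3 or sorted D4 replicate 2 (0.0506 to 0.0996). Fitting all 57 libraries ended those for Tbx2 (0.239), Axl (0.239), Col3a1 (0.0811), Tmem252 (0.276), Fat3 (0.1), Fras1 (0.0955), Adamts17 (0.239) and Igfbp5 (0.683), and the call on Prdm1 remained. RLE factors in place of TMM ended the call for Adamts17 (0.0514). Against D2 the calls were lost for Tbx2 without progeny replicate 3 or D2 replicate 1 or 2 or 3 (0.0509 to 0.0941) and Fras1 without progeny replicate 1 or 2 or 3 or D2 replicate 1 or 2 (0.0519 to 0.179), and with all 57 libraries for Tbx2 (0.0781) and Fras1 (0.0749).

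Sox1+FOXA2- and Sox1+FOXA2+ cells went through the same sort, replating and serum medium. The difference between their change and that of the Sox1-FOXA2+ cells was tested for each gene. Of 22909 genes, 5 (0.0218%) differed from the change in Sox1+FOXA2- cells and 2 (0.00873%) from that in Sox1+FOXA2+ cells. An unadjusted p under 0.05 was reached by 1645 and 2048 genes, and a gene that did not pass may still differ. Lrp2 was 1 of the 5 genes called against Sox1+FOXA2- cells. It had 13707, 19922 and 6324 at D2 and 7907, 3991 and 9669 in the progeny of Sox1+FOXA2- cells, whereas every Sox1-FOXA2+ progeny library was above every D2 library. The difference between the changes was 3.70 on the log2 scale (standard error 0.55, adjusted p = 0.0117), called with any single library left out and with all 57. In Sox1+FOXA2+ cells Lrp2 had 6061, 6377 and 5306 at D2 and 10085, 19228 and 18471 in the progeny, and no difference from the change of the FOXA2 single-positive cells passed the test (difference 1.39, adjusted p = 0.535). Hmga2, a chromatin protein of fetal and stem cells, had 3278, 4769 and 3825 at D2 and 907, 905 and 1069 in the Sox1-FOXA2+ progeny (log2 fold change -2.04 (standard error 0.44, adjusted p = 0.0107)). In Sox1+FOXA2- cells it had 2727, 2636 and 811 and 7550, 13416 and 4184, and the changes differed by -4.08 (adjusted p = 0.0117), a call lost with all 57 libraries (adjusted p = 0.175). Between the Sox1-FOXA2+ groups the call was lost for Hmga2 without progeny replicate 1 or D2 replicate 2 (0.0521 to 0.0562), and with all 57 libraries for Hmga2 (0.172).

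**Figure D5:**
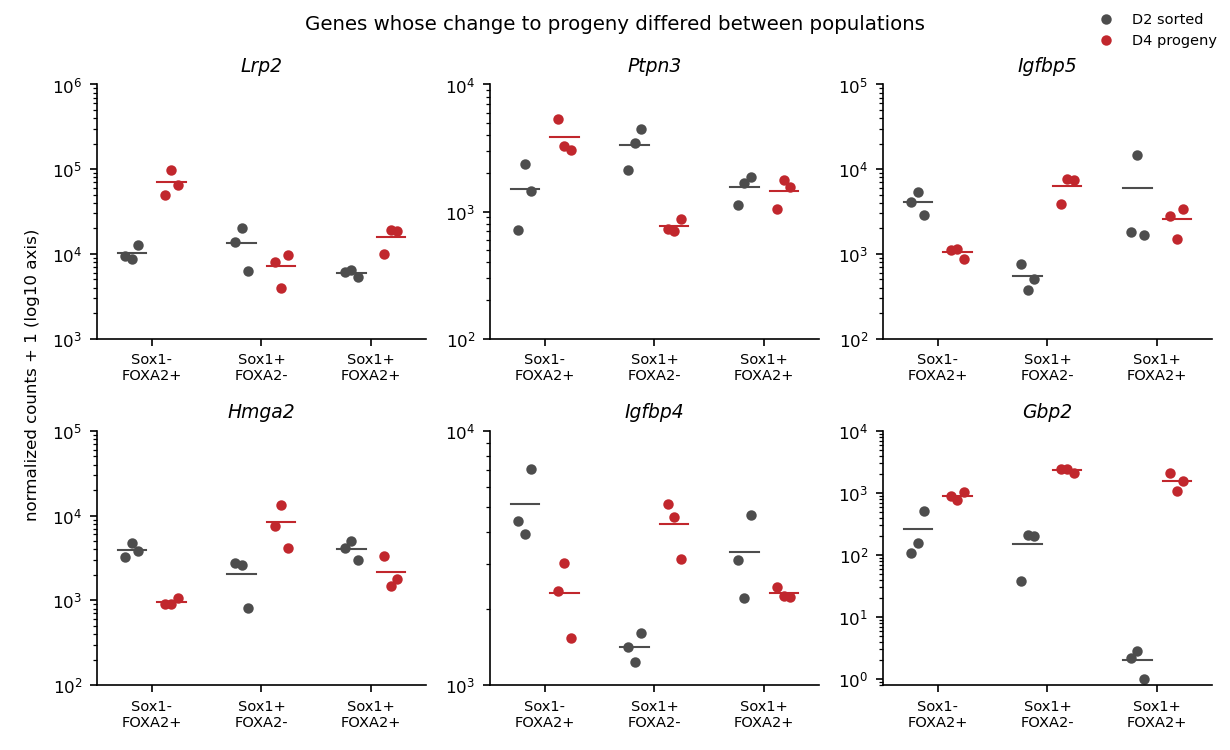
Normalized counts plus 1 per library (log10 axis) of 6 genes in D2 sorted (grey) and D4 progeny (red) cells of the 3 populations, with 3 points per group and the mean as a line. Lrp2 is higher in progeny than at D2 in Sox1-FOXA2+ cells and not in Sox1+FOXA2- cells, and Hmga2 and Igfbp5 are lower in Sox1-FOXA2+ progeny and higher in Sox1+FOXA2- progeny.

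As group medians, smooth muscle and SRF targets had log2 fold changes of 4.03 in Sox1+FOXA2- cells, 3.11 in Sox1+FOXA2+ cells and 2.96 in Sox1-FOXA2+ cells. Cholesterol genes had -1.46, -1.52 and -1.21 in the same order, and basement membrane genes 1.06, 2.03 and 2.85. The endoderm transcription factors had -0.23, -0.57 and 1.70. Over all tested genes the medians were -0.02, 0.23 and 0.06. No gene of these 4 lists passed edgeR's test of a difference in change against Sox1+FOXA2- cells. With an unadjusted p under 0.05 there were 4 of 12 endoderm transcription factors, 7 of 12 basement membrane, 5 of 17 smooth muscle and 1 of 22 cholesterol genes. DESeq2 called 1, 3, 3 and 0. Over all genes, 1645 of 22909 had such a p in this test, and DESeq2 called 444. The group medians are therefore given as a description.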

How the data were processed

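Per the study's methods and the labels' processing notes, the authors aligned SMART-Seq Stranded reads with STAR to mouse GRCm38, annotated with GENCODE M21, sorted them with SAMtools and counted reads per gene with featureCounts, and deposited a table of raw counts for 57 libraries. Tool versions, the strand setting and the treatment of reads from near-identical copies are not given in the sources used here. All 57 columns matched a sample's labels, 92 rows named no gene and held 0 counts, and no 2 libraries were identical.

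Groups were taken from the labels. Counts were tested with edgeR 4.0.16 in R 4.3.3 (TMM factors, filterByExpr with a minimum count of 10 and total of 15, prior count 0.125, quasi-likelihood test, 2-sided, Benjamini-Hochberg over all genes tested, adjusted p under 0.05). Each test used 18 libraries, the 3 sorted populations in the pair of conditions compared, which share 1 estimate of the spread. The test of a difference in change was an interaction contrast in the same fit. Printed normalized counts use size factors of DESeq2 1.42.0 over all 57 libraries. A fold against a group at 0 is a bound computed from a floor of 3 counts over the group, and a fold against 1 to 3 counts has an exact Poisson interval at the 95% level, which covers counting error only. The study calls its replicates biological, and the labels do not say whether they came from separate cultures, so p-values measure only the spread between these samples. Tables and figures used Python 3.11.15, pandas 2.3.3, numpy 2.4.6, scipy 1.17.1 and matplotlib 3.10.9, and the tests were tried on simulated counts.

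Named genes are members of 36 gene lists, the 12 called genes that rose most and the 12 that fell most against D2, given no overlap between libraries and an average of at least 100 normalized counts in the higher group, the 5 and 5 such genes against sorted D4, and the largest interactions. Some members that did not pass the test, and the promoters shown, were picked after their values were seen. The comparison and the lists were chosen with earlier results of these data known. Alternatives were DESeq2, RLE factors, no filter, only the groups compared, all 57 libraries in 1 fit, a replicate block, TMM-scaled levels and leaving out each library. Some members of the lists are counted and not reported here by name.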

Additional observations from a re-analysis of the deposited data

Results flagged for a closer look

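These genes changed differently in Sox1-FOXA2+ cells and in another population put through the same sort and replating, by edgeR's interaction test. Lrp2, which encodes the endocytic receptor megalin, rose more than in Sox1+FOXA2- cells, with a difference between the log2 fold changes of 3.70 (adjusted p = 0.0117). Ptpn3, a tyrosine phosphatase, had 714, 2359 and 1438 normalized counts at D2 and 5314, 3265 and 3070 in the progeny of Sox1-FOXA2+ cells, and 2128, 3448 and 4449 and 722, 702 and 869 in Sox1+FOXA2- cells, and the changes differed by 3.44 (adjusted p = 0.0186). Its call was lost without progeny replicate 1 or D2 replicate 1 or 3 of Sox1-FOXA2+ cells or progeny replicate 1 or 2 of Sox1+FOXA2- cells (adjusted p 0.0526 to 0.0783).

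Igfbp5 and Igfbp4, which bind insulin-like growth factors, were below D2 in every Sox1-FOXA2+ progeny library and above D2 in every Sox1+FOXA2- progeny library. Igfbp5 had 4090, 5351 and 2908 at D2 and 1112, 1132 and 876 in the Sox1-FOXA2+ progeny, and 757, 374 and 502 and 3833, 7556 and 7374 in Sox1+FOXA2- cells, and the changes differed by -5.57 (adjusted p = 0.0117). For Igfbp4 the values were 4413, 3919 and 7078 and 2339, 3009 and 1530, and 1404, 1228 and 1600 and 5152, 4569 and 3143, a difference of -2.76 (adjusted p = 0.013), lost without progeny Sox1+FOXA2- replicate 2 (adjusted p = 0.0579). The difference for Hmga2, described above, was -4.08. With all 57 libraries in the fit, the differences for Ptpn3, Igfbp5, Igfbp4 and Hmga2 did not pass (adjusted p = 0.052, 0.302, 0.305 and 0.175), and that for Lrp2 did.

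Against Sox1+FOXA2+ cells, Gbp2, an interferon-induced GTPase of a family of related copies, had 108, 153 and 519 and 885, 759.9 and 1047 in Sox1-FOXA2+ cells, and 1.16, 1.81 and 0 and 2128, 1067 and 1565 in Sox1+FOXA2+ cells, and the changes differed by -8.50 (adjusted p = 0.00121). Its D2 Sox1+FOXA2+ libraries were at or near 0, so this fitted value depends on the prior count. Pcolce, an enhancer of procollagen processing, was at 0 in all of them, and its fitted difference of -10.85 (adjusted p = 0.0353) is no bound either. It had 112, 28.5 and 72.3 and 107, 427 and 626 in Sox1-FOXA2+ cells, and 1259, 991 and 1173 in the Sox1+FOXA2+ progeny. Neither passed with all 57 libraries (adjusted p = 0.149 for Gbp2 and 0.515 for Pcolce). With only the 4 groups compared, the adjusted p of Pcolce was 0.0641. It was also lost without progeny Sox1+FOXA2+ replicate 1 or 2 or 3 or progeny Sox1-FOXA2+ replicate 1 or 2 (adjusted p 0.0511 to 0.106).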

How the results depend on the processing

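Of 119 named or listed genes called against D2, 76 were called with any single library left out and 43 lost the call in at least 1 such fit. None changed direction under any alternative. With all 57 libraries in the fit 49 lost the call, with only the groups compared 9 (2 were not tested there), with the replicate block 6 (Junb, Birc7, Prickle3, Tmem212, Wnt10b and Zscan4a, adjusted p 0.0563 to 0.0888), and with RLE factors, no filter or DESeq2 none (DESeq2 gave no adjusted p for 2). The count of genes called against D2 was 498, and 1769 with DESeq2, 890 without the filter, 263 (205 higher, 58 lower) with all 57 libraries, 536 with RLE factors, 635 with only the groups compared and 273 to 407 with 1 library left out, lowest without D2 replicate 1. The share called higher was 65.66% and, with all 57 libraries, 77.95%. Against sorted D4 it was 36, and 579 with DESeq2, 236 without the filter, 111 with only the groups compared, 12 with all 57 libraries, 67 with the replicate block, 29 with RLE factors and 9 (without sorted D4 replicate 2) to 26 with 1 library left out. Between sorted D4 and D2 it was 32, and 1345, 131 and 114 in the first 3 of these settings and 4 (without D2 replicate 1) to 37 with 1 library left out. For the change against Sox1+FOXA2- cells it was 5, and 444, 134, 14, 2 and, with the replicate block, 10, and 3 to 14 with 1 library left out. For the change against Sox1+FOXA2+ cells it was 2, and 758 with DESeq2, 118 without the filter, 0 with all 57 libraries (unadjusted p under 0.05 for 2267 genes) and 1 to 35 (without D2 Sox1+FOXA2+ replicate 1) with 1 library left out. The causes were not tested. With 1 library left out, the log2 fold change was -0.10 to 0.40 for Lama5, -0.27 to 0.53 for Fn1, -10.44 to 4.77 for Afp and -3.82 to 5.05 for Ttr, none of which was called.

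Replicate numbers did not pair the D2 and progeny libraries: the deviations of same-numbered D2 and progeny libraries from their group means, over the 5000 most abundant genes, correlated at 0.00578, 0.14 and -0.143, and only number 2 correlated best with its own number. For sorted D4 and progeny libraries the correlations were 0.0894, 0.308 and 0.304, each the highest for its number. Whether these libraries share a culture or day by number was not tested. With the replicate block 583 genes (389 higher, 194 lower) were called against D2, 47 between sorted D4 and D2, and 2 for the change against Sox1+FOXA2+ cells. With 3 libraries a group, and 10170632 counts in progeny replicate 1, low genes were poorly resolved, and a gene that did not pass may still differ.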
